A study of Mus musculus with 32 samples.

Results

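Of 10 genes chosen here as genes of the integrated stress response, 9 were measured in the RNA of mouse microglia: Atf4, Ddit3, Xbp1, Asns, Chac1, Ggct, Ppp1r15a, Ddit4 and Sesn2. The genes, and the further gene lists below, were chosen by name with earlier results of these data known. Counts set beside shares of all genes are therefore a description and no test. Trib3, the other gene named, was not analysed here. The table holds 18588 genes in all, and 28 of its 32 libraries were used. rTg4510 mice carry mutant human tau under a tetracycline-responsive element and a tetracycline transactivator driven by the CaMKIIα promoter, so that tau is made in forebrain neurons. The WT animals were littermates without a transgene, labelled 129/FVB F1, and all animals were female. Each library is the RNA of cells captured with CD11b beads from pooled forebrains of 8 to 10 animals, at 2, 4, 6 or 8 months of age. Both genotypes had 4 libraries at 2 and at 6 months and 3 at 4 and at 8 months. Replicate 3 of 4 months and replicate 4 of 8 months, in both genotypes, had been excluded by the authors after failed RNAseq QC.

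The integrated stress response is the route by which a cell lowers protein synthesis under strain and raises a set of repair genes. Several kinases, each of which senses a different strain, phosphorylate the initiation factor eIF2, general translation falls, and the mRNA of the transcription factor ATF4 is translated better. ATF4 then binds composite elements in the promoters of genes for amino acid supply, redox balance and growth arrest, often with a C/EBP-family partner, and 1 of its targets, the phosphatase subunit encoded by Ppp1r15a, closes the loop by reversing the phosphorylation. ATF4 is thus set largely by translation, which RNA levels do not measure. Xbp1 belongs to a neighbouring arm of the unfolded protein response, in which its mRNA is spliced, and the gene signal used here does not separate the spliced form.

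The letters of the composite element were searched for on both strands of the promoters, from 250 bases before to 50 bases after the start of each gene, in RefSeq's GRCm38.p6 annotation. The motif TGATGNAA was found in 2 of the 9 measured genes, Asns and Chac1, beside 4.51% of 27025 genes with a promoter of the same length. Among 33 other listed targets of ATF4 and of CHOP, the protein of Ddit3, 11 held it (33.3%). By the calls defined below, Asns and Chac1 were higher in rTg4510 at 4 and at 6 months. Of the 11 others with the motif, Atf3 and Herpud1 were higher at 1 age each and Slc1a4 was lower at 3 ages. The rest of the 11 were not called or not measured. Whether the motif goes with a change was not tested. The stretches of the 2 measured genes that held it are shown. The Asns stretch is chr6:7693210-7693269 on the minus strand and the Chac1 stretch is chr2:119351022-119351081 on the plus strand, both 60 bases long and upstream of the start, and capitals mark the motif.
Asns: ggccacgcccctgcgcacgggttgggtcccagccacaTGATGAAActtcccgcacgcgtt
Chac1: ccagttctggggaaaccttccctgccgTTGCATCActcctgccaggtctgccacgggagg
In Asns the motif lay 23 to 16 bases before the start. In Chac1 it lay 193 to 186 bases before the start and on the opposite strand, where it reads TGATGCAA, a form that 1.03% of genes held. The ER stress element ERSE, the motif of the ATF6 and XBP1 arms, was in 0 of the 9 promoters and in 0.137% of all genes. A match is a run of letters and no measured site, and a window without the letters shows nothing of the factor.

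Values are log2 gene signals, normalized by the authors to 1 library median (5.63 in each library), and genes are not compared with each other because the signal is not per length. A log2 fold change is the mean of rTg4510 less that of WT and is given with its standard error (SE). Tests are those of limma's linear model, which had 20 residual degrees of freedom, with p-values adjusted as an FDR by Benjamini-Hochberg across the 18588 genes. A gene was called, or named a DEG, where its FDR was below 0.05 and it changed by more than 1.5 fold. In such bulk libraries, fewer cells of a type and less RNA per cell cannot be told apart. The labels do not say what a replicate number stands for.

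Of the 9 genes, 1 was a DEG at 2 months (Ggct, up-regulated), against 1.98% of all genes called in either direction and 1.58% called higher. At 4 months 3 were up-regulated (Asns, Chac1 and Ggct), against 13.8% of all genes and 9.47% called higher. The same 3 genes were called at 6 months, against 19.8% and 11.3%. At 8 months Asns and Ggct were up-regulated and Ddit4 was down-regulated, against 15.9% of all genes, 10.5% called higher and 5.37% called lower. For the mean of the 4 ages, 4 of 9 were called (Asns, Chac1 and Ggct up, Ddit4 down), against 16.5% of all genes, 9.51% called higher and 7.03% called lower. The median log2 fold change of the 9 genes was 0.27 at 6 months and 0.55 at 8 months, beside -0.04 and -0.01 for all genes, and it was -0.00 at 4 months beside -0.04 for all genes. The groups of 0 of the 9 genes were without overlap at 2 months, of 4 at 4 months (Asns, Chac1 and Ggct higher, Xbp1 lower), of 3 at 6 months (Asns, Chac1 and Ggct) and of 4 at 8 months (these 3 higher, Ddit4 lower), against 11%, 36.6%, 32.8% and 36.7% of all genes. Atf4 and Xbp1 were called at no age, Ddit3 and Sesn2 each passed the FDR at 1 age with a change under 1.5 fold, and Ppp1r15a passed the FDR at no age.

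**Figure D1:**
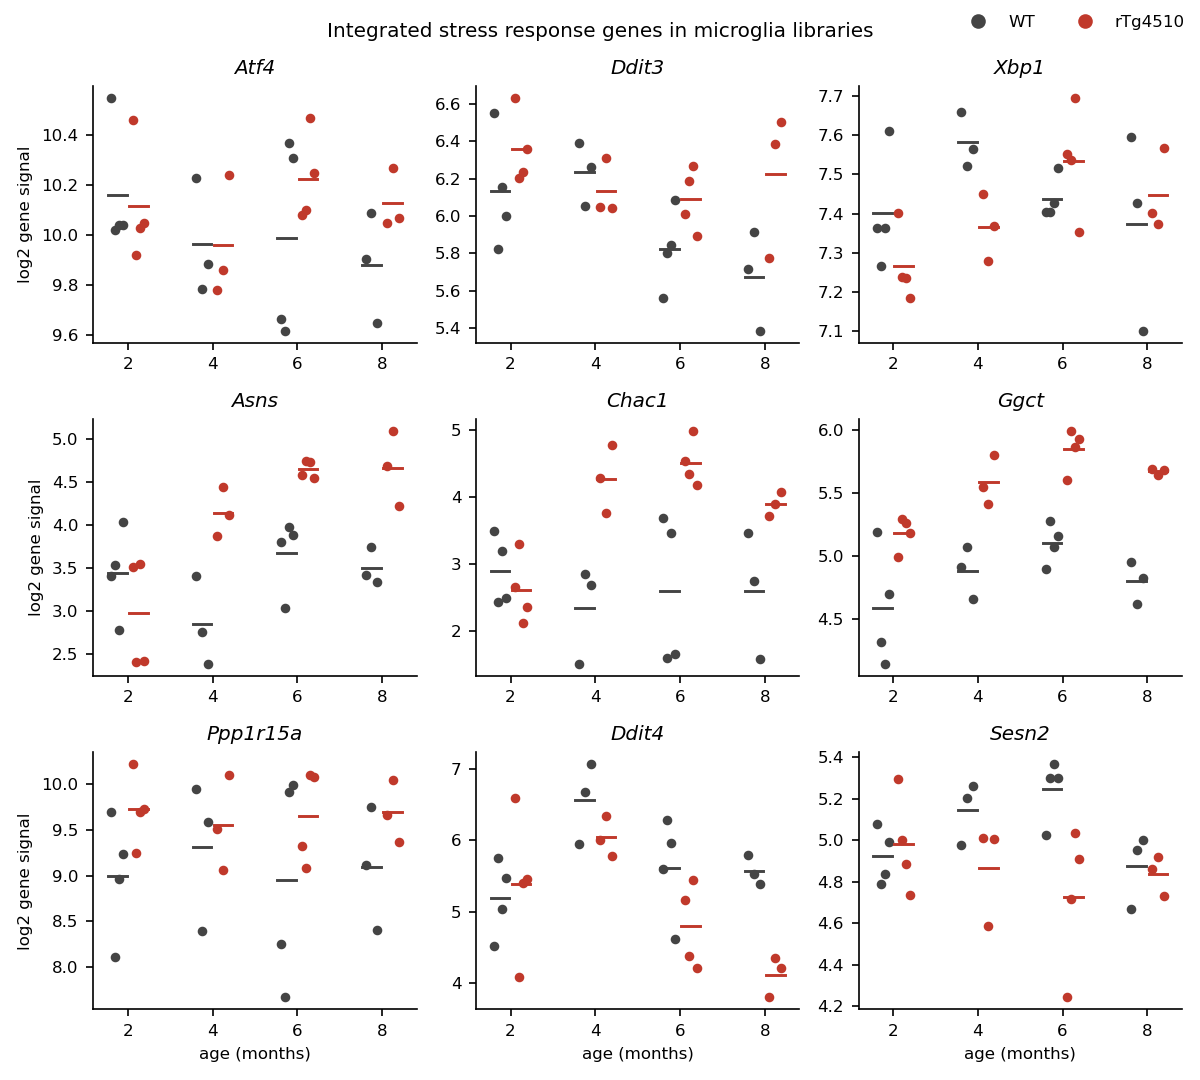
log2 gene signal (y axis, scaled separately in each panel and not starting at 0) of the 9 genes in the 28 libraries by age in months (x axis). Each point is 1 library and each bar a group mean, WT in grey and rTg4510 in red. For Asns and Chac1 every rTg4510 library lies above every WT library at 4, 6 and 8 months, for Ddit4 every rTg4510 library lies below at 8 months, and the panels of Atf4 and Ppp1r15a overlap at every age.

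Asns encodes asparagine synthetase, the enzyme that makes asparagine and a classical target of ATF4. At 2 months it read 3.42, 3.54, 2.79 and 4.03 in the WT libraries and 3.51, 2.41, 3.55 and 2.43 in the rTg4510 libraries, and the groups overlapped (log2 fold change -0.47, SE 0.31, limma FDR 0.51). At 4 months the WT libraries read 3.41, 2.76 and 2.38 and the rTg4510 libraries 3.88, 4.44 and 4.12. The groups no longer overlapped at this age, and Asns was 2.46-fold higher in rTg4510 (log2 fold change 1.30, SE 0.36, limma FDR 0.010). At 6 months the values were 3.80, 3.03, 3.98 and 3.89 in WT and 4.59, 4.75, 4.73 and 4.55 in rTg4510 (1.97-fold higher, log2 fold change 0.98, SE 0.31, limma FDR 0.018). At 8 months they were 3.42, 3.75 and 3.34 in WT and 4.70, 5.10 and 4.22 in rTg4510 (2.25-fold higher, log2 fold change 1.17, SE 0.36, limma FDR 0.018). At both ages every rTg4510 library again lay above every WT library. The rise of the genotype effect from 2 to 4 months was itself called for Asns (log2 difference 1.77, SE 0.47, limma FDR 0.025), 1 of 9 genes against 4.66% of all genes.

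Asns lies low in these libraries, at the 10.7th percentile of mean signal, and its residual spread is at the 76th percentile. Low values can be read as log2 of a count plus 1.5, a reading inferred from the values. On it Asns at 4 months stood at 4.13, 1.8 and 1.36 counts in WT and 6.04, 11.3 and 8.07 in rTg4510. At 2 months it stood at 2.76, 4.97, 1.89 and 5.81 counts in WT and 3.01, 1.46, 5.27 and 1.13 in rTg4510. The fold at 4 months and the rise from 2 to 4 months thus rest on few counts. The calls rested on single libraries. With the excluded libraries added, the log2 fold change at 4 months was 0.77 (limma FDR 0.125) and the FDR at 6 months was 0.055, so that both calls were lost. Without WT replicate 4 the FDR at 4 months was 0.065, and without WT replicate 2 the FDR at 6 months was 0.076, while at 8 months it reached 0.098 when rTg4510 replicate 2, WT replicate 1 or WT replicate 3 was left out. At 6 and 8 months, where same-numbered libraries of both genotypes deviate together, the limma FDR with the replicate number as a block was 0.066 and 0.071 (range over all alternatives 0.013 to 0.076 and 0.0092 to 0.098), so that the call was lost at both ages. The log2 fold change stayed between 0.77 and 1.58 at 4 months, between 0.76 and 1.08 at 6 months and was 0.96 or higher at 8 months over those alternatives.

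Chac1 encodes a cytosolic γ-glutamylcyclotransferase that degrades glutathione and is a target of ATF4 in amino acid and ER stress. It is close to the lower end of detection, at the 3.64th percentile of mean signal. The low values of a library lie on steps that read as log2 of a count plus 1.5, and on that reading, which is inferred from the values, Chac1 stood at 3, 1.5, 3 and 1 counts in the WT libraries of 2 months and at 1, 4, 1 and 1 counts in those of rTg4510. No fold is given for that age. At 4 months it stood at 0, 2 and 2 counts in WT and at 8.5, 6.5 and 13.5 counts in rTg4510. All WT libraries were thus within 3 counts of the lowest value and no rTg4510 library was, and Chac1 was called higher (limma FDR 0.014). The rTg4510 mean lay 2.24-fold above that limit of 3 counts. This figure leaves out the spread between libraries and is no lower bound on the true change. At 6 months the log2 signals were 3.69, 1.59, 3.46 and 1.65 in WT and 4.53, 4.34, 4.99 and 4.19 in rTg4510. The WT libraries fell into 2 near the lowest value and 2 above it, and every rTg4510 library lay above all 4 (log2 fold change 1.91, SE 0.48, limma FDR 0.0038).

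At 8 months Chac1 read 3.46, 2.74 and 1.58 in WT and 3.71, 3.90 and 4.07 in rTg4510. The groups did not overlap here either, but the lowest rTg4510 and the highest WT library were close, and the gene was not called (log2 fold change 1.30, SE 0.56, limma FDR 0.095). In rTg4510 libraries alone, Chac1 and Asns were called from 2 to 4 months (log2 differences 1.67, SE 0.52, limma FDR 0.033, and 1.17, SE 0.33, limma FDR 0.020), 2 of 9 genes against 6.39% of all genes. Neither was called from 4 to 6 or from 6 to 8 months. The genotype effect of Chac1 from 2 to 4 months was not called (limma FDR 0.072), and its WT libraries were within 3 counts of the lowest value at both ages. Leaving out WT replicate 1 or rTg4510 replicate 4 ended the call of Chac1 at 4 months (limma FDR up to 0.085). The call at that age was also lost with all 32 libraries (fitted log2 fold change 1.11, limma FDR 0.153, beside 1.93 in the 28 libraries) and with only the groups compared in the fit (FDR 0.101), as was the call at 6 months in the latter fit (FDR 0.060). At 8 months the gene was called without WT replicate 1 (FDR 0.042).

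Ggct encodes γ-glutamylcyclotransferase, which splits γ-glutamyl amino acids in the glutathione cycle, and it was called at each of the 4 ages. At 2 months the values were 5.19, 4.32, 4.14 and 4.70 in WT and 4.99, 5.30, 5.26 and 5.19 in rTg4510. WT replicate 1 lay above 2 of the 4 rTg4510 libraries, and the other WT libraries lay below all of them (1.51-fold higher, log2 fold change 0.59, SE 0.17, limma FDR 0.034). At 4 months the values were 4.92, 5.08 and 4.66 in WT and 5.55, 5.41 and 5.80 in rTg4510. At 6 months they were 4.90, 5.28, 5.08 and 5.16 in WT and 5.60, 5.99, 5.87 and 5.93 in rTg4510, and at 8 months 4.96, 4.62 and 4.83 in WT and 5.69, 5.64 and 5.68 in rTg4510. From 4 months on no WT library reached the lowest rTg4510 library of its age.

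The change of Ggct was 1.63-fold at 4 months (log2 fold change 0.70, SE 0.19, limma FDR 0.0097), 1.68-fold at 6 months (0.74, SE 0.17, FDR 0.0013) and 1.83-fold at 8 months (0.87, SE 0.19, FDR 0.0015). No difference between successive ages was called for Ggct. The mean of the 4 ages was 0.73 (SE 0.09, limma FDR 7.57e-07). The call at 2 months was lost when any of rTg4510 replicates 2, 3 and 4 or WT replicates 2, 3 and 4 was left out (limma FDR up to 0.147), and the call at 4 months without replicate 4 of either genotype (FDR up to 0.059). With only the groups compared in the fit both were lost (FDR 0.321 and 0.080), and with all 32 libraries that of 2 months (FDR 0.181). With the replicate number as a block the call of 2 months was lost (limma FDR 0.115), and those of 4, 6 and 8 months were kept. The log2 fold change lay above 0 in every alternative, between 0.45 and 0.80 at 2 months and between 0.59 and 1.03 at 4 months.

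**Figure D2:**
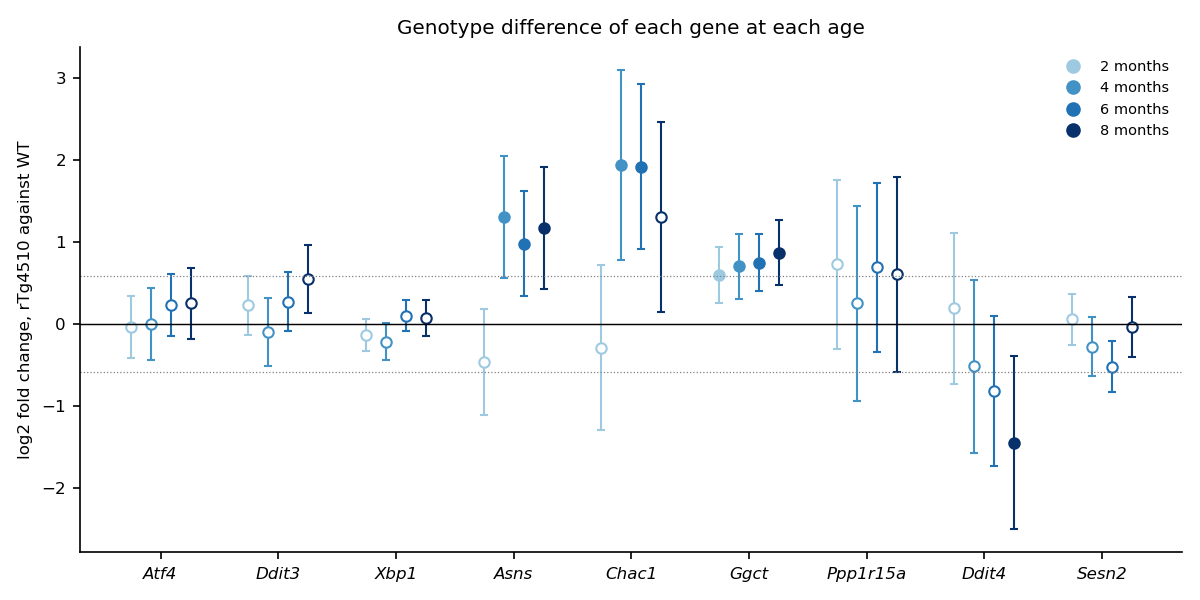
log2 fold change, rTg4510 against WT (y axis), of each gene (x axis) at 2, 4, 6 and 8 months, from light to dark blue. Bars are 95% intervals from the residual spread of the gene, filled points are DEGs, open points are not, and dotted lines mark 1.5 fold. Asns and Chac1 lie below 0 at 2 months and above it from 4 months on, Ggct lies above 0 at each age, and Ddit4 falls to -1.45 at 8 months. The Chac1 points at 2 and 4 months rest on WT libraries within 3 counts of the lowest value.

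Atf4 encodes the central transcription factor of the response. Its group means lay between 9.88 and 10.16 in WT and between 9.96 and 10.22 in rTg4510, and the groups overlapped at every age. The log2 fold changes were -0.04, 0.00, 0.23 and 0.25 at 2, 4, 6 and 8 months (SE 0.18 to 0.21, limma FDR 0.35 or higher). The 95% interval for the mean of the 4 ages ran from -0.10 to 0.31, and its upper end is a 1.24-fold change. At 6 months WT replicates 1 and 2 read 9.66 and 9.62 and WT replicates 3 and 4 read 10.37 and 10.31, while the rTg4510 libraries read 10.08, 10.10, 10.47 and 10.25. The WT libraries of this age thus formed a low and a high pair, with replicates 1, 2 and 4 of rTg4510 between them. Replicates 1 and 2 lay below replicates 3 and 4 in rTg4510 too.

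Ddit3 encodes CHOP, the transcription factor that follows ATF4 when stress persists. At 8 months it read 5.72, 5.92 and 5.38 in WT and 5.77, 6.39 and 6.50 in rTg4510. The lowest rTg4510 library overlapped the WT libraries, and the difference passed the FDR with a change below 1.5 fold (1.46-fold, log2 fold change 0.55, SE 0.20, limma FDR 0.047, against 25.7% of all genes that passed the FDR alone). At 2, 4 and 6 months the log2 fold changes were 0.23, -0.10 and 0.27 (limma FDR 0.25 or higher). Averaged over the 4 ages the change was 0.24 (SE 0.09, limma FDR 0.044), also below 1.5 fold, where 46.7% of all genes passed the FDR alone. With the replicate number as a block neither passed (limma FDR 0.064 at 8 months and 0.057 over the mean, range over all alternatives 0.0066 to 0.292 and 0.0088 to 0.089). Leaving out 1 library moved the FDR at 8 months between 0.0066 and 0.203, and Ddit3 was a DEG without rTg4510 replicate 1 or WT replicate 2.

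Xbp1 encodes the transcription factor of the IRE1 arm. It had the smallest spread of the 9 genes, at the 19.9th percentile of residual spread, with group means between 7.27 and 7.58. At 4 months the rTg4510 libraries (7.45, 7.28 and 7.37) all lay below the WT libraries (7.66, 7.52 and 7.56), but the difference was small and was not called (log2 fold change -0.22, SE 0.11, limma FDR 0.16). At the other ages the groups overlapped, with log2 fold changes of -0.14 at 2 months, 0.10 at 6 months and 0.07 at 8 months.

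Ppp1r15a encodes GADD34, the stress-induced subunit that directs protein phosphatase 1 to eIF2. Its mean log2 fold change over the ages was 0.57 (SE 0.27, limma FDR 0.088), and it was called at no age (0.73, 0.25, 0.69 and 0.60 at 2, 4, 6 and 8 months, SE 0.49 to 0.57). Its spread between libraries of a group was the largest of the 9 genes, at the 89.3th percentile of residual spread. At 6 months the WT libraries read 8.25, 7.67, 9.92 and 9.99 and the rTg4510 libraries 9.33, 9.08, 10.10 and 10.08. Replicates 1 and 2 were low and replicates 3 and 4 high in both genotypes, and each rTg4510 library lay above the WT library of its number. This was so in 4 of 4 same-numbered pairs at 6 months and 3 of 3 at 8 months, the ages at which the numbers were taken to pair libraries. At 2 months, where the pairing is uncertain, it was so in 4 of 4. At 4 months, where libraries share only a number, it was so in 2 of 3. With the replicate number as a block the FDR was 0.15 at 2 months, 0.057 at 6 months and 0.16 at 8 months. Over the mean of the ages, which takes in 2 and 4 months too, the blocked value was 0.57 with an SE of 0.14 (limma FDR 0.0061, range over all alternatives 0.0061 to 0.24), still below 1.5 fold.

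Immediate early and heat shock genes are induced when tissue is taken apart, and they were examined beside Ppp1r15a. The mean log2 signal of 21 such genes at 6 months was 10.81, 10.54, 11.62 and 11.55 in WT replicates 1 to 4 and 11.14, 10.99, 11.62 and 11.45 in those of rTg4510. The same pair of replicates was low in both genotypes, as for Ppp1r15a and Atf4. In rTg4510 the gap of Atf4 was narrower, with 10.08 and 10.1 in replicates 1 and 2 and 10.47 and 10.25 in replicates 3 and 4. Over the groups the mean of this list ran from 11.13 to 11.39 in WT and from 11.27 to 11.55 in rTg4510, and the log2 of its summed signal from 17.79 to 18.57 in WT libraries and from 17.72 to 18.59 in rTg4510 libraries. Of the 21 genes, 7 were DEGs at 1 or more ages, 4 up-regulated and 3 down-regulated, beside 25.1% of all genes called at 1 or more ages, 14.1% higher and 11.1% lower. Nr4a1 and Egr2, immediate early transcription factors, were higher by 1.83 (SE 0.12) and 1.14 (SE 0.09) on the log2 scale over the mean of the ages, and the heat shock genes Hspa1a and Hspa1b were at -1.32 (SE 0.21) and -1.48 (SE 0.22). The part of these genes in the values of Ppp1r15a and Atf4 was not tested.

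**Figure D3:**
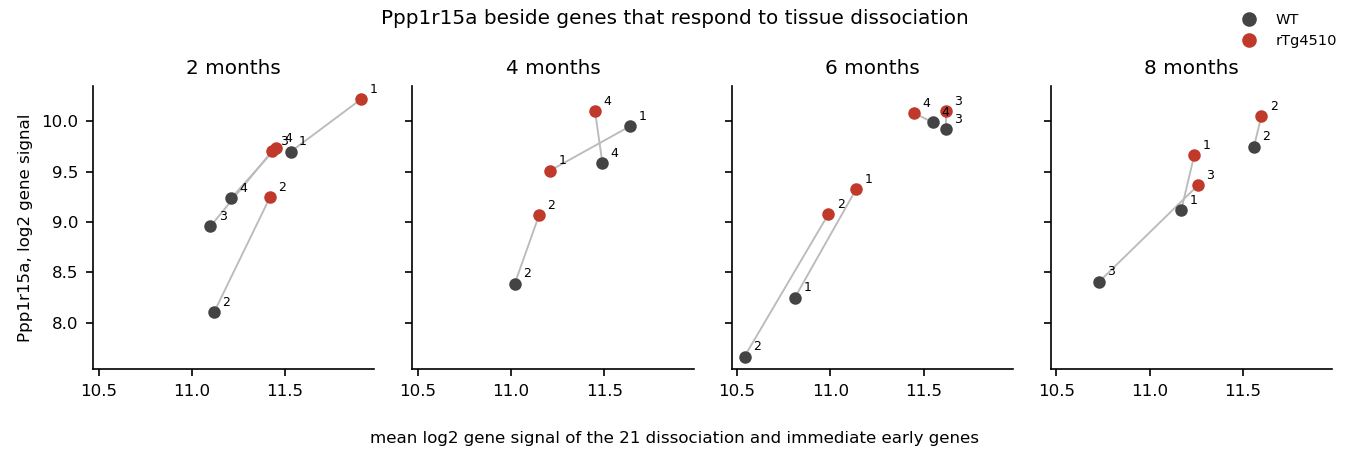
Ppp1r15a log2 gene signal (y axis) against the mean log2 gene signal of 21 dissociation and immediate early genes (x axis), 1 panel for each age. Each point is 1 library, WT in grey and rTg4510 in red, numbered by replicate, and lines join the same number in both genotypes. At 6 months replicates 1 and 2 lie low on both axes and replicates 3 and 4 high, and in each of the 4 joined pairs of that age the rTg4510 library is higher on the y axis.

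Ddit4 encodes REDD1, an inhibitor of the growth kinase complex mTORC1 that is induced by ATF4, glucocorticoids and hypoxia. It was the 1 gene of the 9 that was down-regulated. At 8 months it read 5.79, 5.53 and 5.40 in WT and 3.80, 4.35 and 4.21 in rTg4510. No value was shared between the groups, and Ddit4 was 2.73-fold lower in rTg4510 (log2 fold change -1.45, SE 0.51, limma FDR 0.040). At 6 months the groups overlapped, with 5.60, 6.29, 5.96 and 4.62 in WT and 5.16, 4.38, 5.44 and 4.21 in rTg4510 (-0.82, SE 0.44, limma FDR 0.16). At 2 months single libraries of rTg4510 ranged from 4.08 to 6.60, and the log2 fold change was 0.19, and at 4 months it was -0.52.

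The call of Ddit4 at 8 months rested on each of its libraries. With the replicate number as a block, at an age when same-numbered libraries deviate together, the limma FDR was 0.097 (range over all alternatives 0.018 to 0.19), and leaving out any 1 of the 6 libraries of 8 months ended the call. The 2 excluded libraries of that age read 4.72 in WT and 5.04 in rTg4510, between the groups. The mean over the 4 ages, -0.65 (SE 0.24, limma FDR 0.030), was lost without rTg4510 replicate 2 of 2 months, replicate 4 of 4 months in either genotype, or rTg4510 replicate 1 of 8 months (FDR up to 0.059), with the replicate number as a block (FDR 0.073) and with all 32 libraries (FDR 0.070). With all 32 libraries the value at 8 months was -1.01 (limma FDR 0.186). In WT, Ddit4 was at 5.20 ± 0.54 at 2 months (SD, n = 4) and at 6.56 ± 0.57 at 4 months (SD, n = 3), a difference that was not called (limma FDR 0.30).

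Sesn2 encodes sestrin 2, a stress-induced leucine sensor that also restrains mTORC1. At 6 months it read 5.02, 5.30, 5.37 and 5.30 in WT and 4.24, 4.71, 5.04 and 4.91 in rTg4510, where only the highest rTg4510 library reached the lowest WT library. The difference passed the FDR with a change below 1.5 fold (1.43-fold lower, log2 fold change -0.52, SE 0.15, limma FDR 0.010, against 34.1% of all genes that passed the FDR alone). At 2, 4 and 8 months the log2 fold changes were 0.06, -0.28 and -0.04 (limma FDR 0.28 or higher). Without WT replicate 1 or rTg4510 replicate 3 the change at 6 months was above 1.5 fold.

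None of the 9 genes was called between successive ages in WT, where 0.0484%, 0.00538% and 0% of all genes were called from 2 to 4, 4 to 6 and 6 to 8 months. Of the 9, 1, 2 and 1 had an unadjusted limma p under 0.05, beside 1902, 1608 and 1818 of all 18588 genes. In rTg4510 0 of the 9 were called from 4 to 6 months (0.818% of all genes) and from 6 to 8 months (0.00538%). Under an unadjusted p of 0.05 were 1 and 0 of the 9, beside 2605 and 2685 of all genes. The genotype effects of 4 against 6 and of 6 against 8 months also gave 0 calls (0.156% and 0% of all genes). Each had 1 of the 9 genes under an unadjusted p of 0.05, beside 1514 and 841 of all genes.

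Of 16 genes that act above ATF4, those of the eIF2 kinases, the phosphatase and the exchange factor eIF2B, 0 were DEGs by limma at any age, against 25.1% of all genes. At 2, 4, 6 and 8 months 2, 3, 4 and 7 of them had an unadjusted limma p under 0.05, beside 3069, 6246, 7990 and 6580 of all 18588 genes. Over the mean of the 4 ages the heme-sensing kinase gene Eif2ak1 changed by 0.01 on the log2 scale (SE 0.03), the double-stranded RNA sensor Eif2ak2 by -0.05 (SE 0.06), and the ER stress sensor Eif2ak3, encoding PERK, by -0.08 (SE 0.04). The amino acid sensor Eif2ak4, encoding GCN2, passed the FDR at -0.16 (SE 0.04, limma FDR 0.0015), far below 1.5 fold. Over the mean of the ages 5 of the 16 passed the FDR, beside 46.7% of all genes that passed the FDR alone. When single libraries were left out, 1 gene of the list was called at 6 or at 8 months. Picked out after its values were seen, Gcn1, encoding an activator of GCN2, had the largest change of the list at -0.42 (SE 0.04, limma FDR 2.5e-08), under 1.5 fold. The median log2 fold change of the 16 genes was 0.01, beside -0.03 for all genes.

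Of 38 other measured targets of ATF4 and CHOP, 12 were DEGs at 1 or more ages, 11 of them up-regulated, beside 25.1% of all genes and 14.1% called higher. The numbers up-regulated and down-regulated were 0 and 0 at 2 months, 7 and 1 at 4 months, 6 and 1 at 6 months and 7 and 1 at 8 months, against 1.58%, 9.47%, 11.3% and 10.5% of all genes called higher. The largest rise was that of Psat1, phosphoserine aminotransferase of serine synthesis, whose group means were 4.25, 4.16, 4.41 and 4.54 in WT and 4.53, 6.09, 6.04 and 6.10 in rTg4510 from 2 to 8 months. As for Asns, no difference was called at 2 months and one was called at each later age (log2 fold changes 0.28, 1.93, 1.63 and 1.56, limma FDR 0.62 and 7.07e-05 or lower). Over the mean of the ages Psat1 was higher by 1.35 (SE 0.12), Gadd45a, a growth arrest gene, by 0.99 (SE 0.11) and Gdf15, a secreted stress signal, by 0.96 (SE 0.19). Slc1a4, a transporter of neutral amino acids, changed by -0.90 (SE 0.13). Atf3, which is both a target of ATF4 and an immediate early gene, was higher by 0.88 (SE 0.18) and a DEG at 6 months alone of the 4 ages.

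The ATF6 and XBP1 arms raise the chaperones and the folding machinery of the ER. Of 31 genes of these arms, 2 were DEGs at 4, 6 and 8 months, beside 25.1% of all genes at 1 or more ages. At 2 months 0 were DEGs by limma, with 8 of 31 under an unadjusted limma p of 0.05, beside 3069 of all 18588 genes. Sec61b, a subunit of the ER translocon, was higher by 0.61 (SE 0.05), and Sdf2l1, a component of the ER chaperone complex, by 0.57 (SE 0.07) over the mean of the ages. The chaperone gene Hspa5, encoding BiP, was picked out after its values were seen, and its mean over the ages was 0.19 (SE 0.15, limma FDR 0.34). The list was not uniform. Under 1.5 fold, P4hb, Canx, Calr, Hsp90b1, Edem1 and Pdia3 passed the FDR over the mean of the ages at 0.09 to 0.32. Creld2, Dnajb9 and Atf6 passed it at -0.26, -0.25 and -0.13. Of all genes 46.7% passed the FDR alone.

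Close relatives of the 10 genes were examined in the same way. Of 8 paralogues 2 were DEGs at 1 or more ages, both down-regulated, beside 25.1% of all genes and 11.1% called lower: Sesn1 at -0.52 (SE 0.03) and Sesn3 at -0.38 (SE 0.06) over the mean of the ages. Sesn1 was lower at 4, 6 and 8 months by 0.64, 0.62 and 0.63 (limma FDR 1.77e-07 or lower). Chac2, the constitutive relative of Chac1, was at -0.35 (SE 0.17, limma FDR 0.098), and Ddit4l, the relative of Ddit4, at -0.67 (SE 0.38, FDR 0.16). The values of Trib1, Trib2, Ppp1r15b and Atf5 were -0.20, -0.65, 0.06 and 0.21, with limma FDR values from 0.13 to 0.28.

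Of 25 regulators of mTORC1, on which REDD1 and the sestrins act, 6 were DEGs at 1 or more ages, 5 up-regulated, a share near the 25.1% of all genes. Rragd, a Rag GTPase, had group means of 2.86, 3.29, 3.30 and 3.33 in WT and 3.33, 5.22, 5.69 and 6.05 in rTg4510 from 2 to 8 months. Lamtor2, Rragc and Lamtor1, of the same lysosomal platform, were higher by 0.54 (SE 0.06), 0.51 (SE 0.04) and 0.47 (SE 0.06). Of 11 genes of glutathione synthesis and breakdown beside Chac1 and Ggct, 5 were DEGs at 1 or more ages, again beside 25.1% of all genes. Cndp2, a dipeptidase that splits cysteinylglycine, was higher by 0.83 (SE 0.04), the peptidases Anpep and Lap3 by 0.47 (SE 0.08) and 0.45 (SE 0.04), and Ggt5, a γ-glutamyltransferase, was at -0.80 (SE 0.05).

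Glucocorticoids and hypoxia are other inducers of Ddit4. Of 11 glucocorticoid-induced genes 3 were up-regulated at 1 or more ages and 0 down-regulated, beside 14.1% of all genes called higher and 25.1% in either direction, with the metallothioneins Mt1 and Mt2 higher by 1.27 (SE 0.10) and 0.65 (SE 0.20) and Zbtb16 by 0.65 (SE 0.17). Of 11 hypoxia-induced genes 5 were up-regulated and 0 down-regulated, beside the same shares, with Pgk1 and Ldha of glycolysis higher by 0.95 (SE 0.05) and 0.75 (SE 0.04) and the mitophagy receptor gene Bnip3 by 0.39 (SE 0.08). The list was not uniform. Picked out after their values were seen, P4ha1 and Pdk1 were at -0.35 and -0.31 (limma FDR 2.9e-05 and 3.1e-05), under 1.5 fold. Ndrg1 was at -0.30 and did not pass the FDR (limma FDR 0.29). Egln3, an oxygen-sensing prolyl hydroxylase gene, was near the lowest value in every WT group and had means of 3.39, 5.48, 5.86 and 5.69 in rTg4510 from 2 to 8 months. At 8 months 1 glucocorticoid-induced and 4 hypoxia-induced genes were up-regulated and none of either list down-regulated, beside 10.5% of all genes called higher and 5.37% called lower. The part of either inducer in the values of Ddit4 was not tested.

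**Figure D4:**
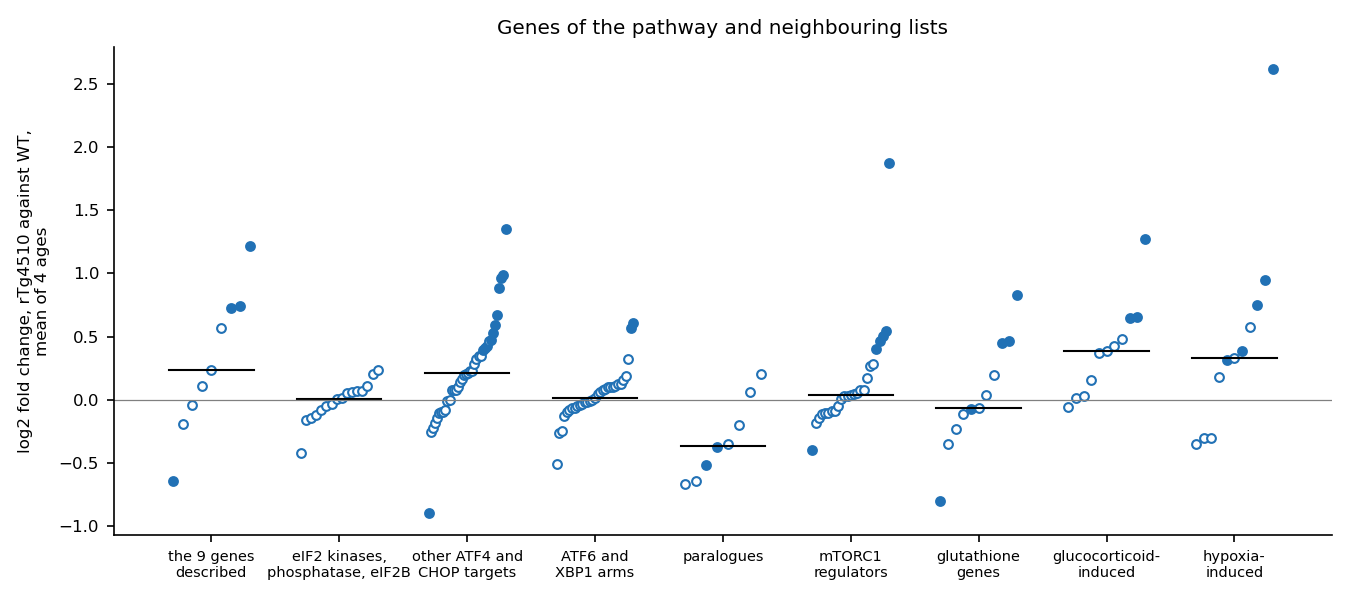
Mean log2 fold change over the 4 ages, rTg4510 against WT (y axis), of every measured gene of the lists named on the x axis. Filled points were DEGs at 1 or more ages, open points at none, and bars are list medians. Egln3, the highest point of the hypoxia list, is plotted at its fitted value although its WT libraries lie near the lowest value. Of the kinase list 0 of 16 points are filled, of the other ATF4 and CHOP targets 12 of 38, and of the ATF6 and XBP1 arms 2 of 31.

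The cells captured were checked by their markers. The 10 microglia markers had a summed log2 level of 14.79 to 15.26 in WT libraries and 14.47 to 15.01 in rTg4510 libraries, with none near the lowest value. Of them 4 were down-regulated at 1 or more ages (Sall1, Tmem119, Fcrls and Itgam), beside 11.1% of all genes called lower. Of the 8 neuron markers 3 were measured, at 4.66 to 6.88 summed in WT and 3.83 to 5.68 in rTg4510. Of 6 neutrophil markers 5 were down-regulated at 6 months and 4 at 8 months. Of all 18588 genes 1588 were called lower at 6 months (19.8% in either direction) and 998 at 8 months (5.37%). The summed level of the neutrophil markers at 8 months was 9.82 to 10.23 in WT and 7.57 to 8.90 in rTg4510, where Ly6g was near the lowest value. The part of this difference in the lower Ddit4 of 8 months was not tested. The median log2 fold change over the mean of the ages was -0.61 for 6 endothelial, -0.55 for 7 astrocyte, -0.35 for 6 border macrophage, -0.63 for 7 oligodendrocyte, -0.55 for 4 lymphocyte and -0.82 for the 3 neuron markers. Of these lists only Flt1 of endothelium and Gfap of astrocytes were up-regulated at 1 or more ages, beside 14.1% of all genes. Down-regulated were 3 endothelial, 3 astrocyte, 1 border macrophage, 1 lymphocyte and 1 neuron marker, beside 11.1% of all genes. Of the 7 oligodendrocyte markers 0 were called. Under an unadjusted limma p of 0.05 were 0, 1, 1 and 1 of the 7 at 2, 4, 6 and 8 months, beside 3069, 6246, 7990 and 6580 of all 18588 genes. The part of these cell types in the values of Asns, Chac1 and Ggct was not tested. The mouse tau gene Mapt, which does not separate the human transgene, was called at no age (mean over the ages -0.60, SE 0.23), and Prnp was called at 6 months (1.19, SE 0.36, limma FDR 0.014).

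The genes whose 8 group means ran most like those of a gene were named by Pearson r, over 8 groups that share genotype and age, as a description. For Ggct these were Sms (r = 0.995), Tep1 and Gm17828, for Asns Slc25a10 (0.9835), Mfsd4b5 and Chst1, and for Chac1 Gm7204 (0.9853), Galns and Degs1. For Atf4 they were Mri1 (0.9709), Slc35c1 and Gm6872, for Ddit3 Polr2e (0.9734), Bmt2 and Polr1c, and for Xbp1 Gm20604 (0.9403), D230025D16Rik and Ppp2r2d. For Ppp1r15a they were Sat1 (0.9713), Snx25 and Glrx, for Ddit4 Gm5578 (0.9735) and Slc35d1, and for Sesn2 Gm1976 (0.9694), Btbd1 and D630044L22Rik. None of the 9 genes was among the 3 nearest genes of another.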

How the data were processed

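RNA of microglia captured with CD11b beads was sequenced in 32 libraries. The authors summed reads over exons, dropped weakly covered exons, combined exons into genes by a robust linear model and deposited log2 gene signals, normalized to a common library median. GRCm38 is named in the submitters' processing notes, and the aligner and annotation are not given in the sources used here. No counts per library were used, so the depth of each library is not known beyond the approximate figure that the authors give for all samples. The lower end of the scale is stepped, and log2(count + 1.5) describes the steps (of 93089 low values, 31.8% fell on whole counts and 22.2% midway between them, tolerance 0.003). This reading is inferred, and "near the lowest value" means within 3 counts in every library of a group. Since steps were fractional and the scale is a model's, no count test was run.

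limma 3.58.1 in R 4.3.3 fitted 8 group means to the 28 libraries that passed the authors' QC, with each gene's own variance and no covariates. p-values were adjusted by Benjamini-Hochberg over 18588 genes in each comparison. Each library pools animals, and p-values measure the spread between libraries. Alternatives were moderated variance, with and without a trend, all 32 libraries, quantile normalization, the replicate number as a block, a fit of only the groups compared, a filter on low signal, the FDR alone, and leaving out each of the 28 libraries. The fit was tested on simulated data.

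Same-numbered WT and rTg4510 libraries deviated together at 6 months (r across genes 0.131 to 0.153, beside -0.127 to 0.0913 for unlike numbers) and 8 months (0.15 to 0.291, beside -0.259 to -0.0281). At 2 months each such pair was above 0 (0.0649 to 0.167, beside -0.194 to 0.0816), but the lowest lay within the range of unlike numbers. At 4 months they did not deviate together (-0.0999 to 0.124, beside -0.0709 to 0.154). The numbers were taken to pair libraries at 6 and 8 months, and at 2 months the pairing is uncertain. At 6 months, unlike numbers within replicates 1 and 2 or within replicates 3 and 4 were also above 0 (0.0622 to 0.0913). The other unlike numbers of that age were at -0.127 to -0.095. The block by replicate number does not describe that wider grouping.

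The 10 genes and all lists were chosen with earlier results of these data known. From the lists, the up to 4 genes with the largest mean change among those called were named, with the eIF2 kinases, the paralogues and Atf3 whatever their values, and for each of the 9 genes the 3 genes with the highest Pearson r of group means, 1 of which is not reported here. Symbols of 17828 genes (95.9%) matched RefSeq, and promoters came from its GRCm38.p6 table.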

Additional observations from a re-analysis of the deposited data

Results flagged for a closer look

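Atf4 in WT replicate 1 of 2 months, at 10.55, stood apart from the other libraries of its group, with a gap that took 0.963 of the group's range. It was the 1 such group of 36 tested, and chance gives about 1 in 20.

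The genotype effect of Asns differed between 4 and 2 months by 1.77 on the log2 scale (limma FDR 0.0246, Benjamini-Hochberg over all genes), 1 call among 27 such differences. It was lost without rTg4510 replicate 2 or 4 of 2 months, rTg4510 replicate 2 or 4 of 4 months, WT replicate 4 of 2 months, or WT replicate 2 or 4 of 4 months, and with the replicate number as a block (FDR 0.0975).

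The libraries that the authors excluded gave 11 of 18 rTg4510 values above every kept WT library of their age. The share over all genes was not counted, and these libraries failed QC, so the count is not a result about the 9 genes. The excluded WT libraries gave 3 of 9 such values at 4 months and 1 of 9 at 8 months. In replicate 3 of 4 months Atf4 read 11.24 (highest WT 10.23), Ddit3 7.208 (6.392), Xbp1 8.148 (7.659), Ppp1r15a 10.06 (9.951) and Ggct 6.163 (5.076). Asns and Chac1 were lower in that library than in the excluded WT library of the same age. They read 2.74 and 2.61 in rTg4510 and 3.54 and 3.97 in WT, where both lay above every kept WT library, the reverse of the direction in the kept libraries. In replicate 4 of 8 months Atf4 read 10.68 (10.09), Ddit3 6.498 (5.916), Asns 4.241 (3.746), Sesn2 5.362 (5.002), Chac1 4.913 (3.455) and Ggct 5.299 (4.956). Against the kept rTg4510 libraries of their age, 4 of the 9 rTg4510 values lay above, 1 within and 4 below the range at 4 months, and 4 above, 4 within and 1 below at 8 months, again without a share over all genes.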

How the results depend on the processing

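Of the 9 genes, 1, 3, 3, 3 and 4 were called at 2, 4, 6 and 8 months and over the mean. With all 32 libraries the counts were 0 at 2 months, 2 at 4, 6 and 8 months, 4 over the mean, 0 for the genotype effect of 4 against 2 months and 0 for rTg4510 at 4 against 2 months. With the replicate block they were 0 at 2 months, 2 at 4 and at 6 months (Asns lost), 1 at 8 months (Asns and Ddit4 lost), 3 over the mean (Ddit4 lost) and 0 for that genotype effect. Over all genes the block moved the count from 29 to 11 for the genotype effect of 6 against 4 months, and by less than 1.5 times in the other comparisons of the genotypes. With only the groups compared they were 0 at 2 months, 0 at 4 months, 2 at 6 and at 8 months and 0 for rTg4510 at 4 against 2 months. Quantile normalization gave 2 for the genotype effect. The filter on low signal, which removes Asns and Chac1 from the test, gave 1 at 4 months, 1 at 6 months, 2 for the mean of the ages, 0 for the genotype effect and 0 for rTg4510 at 4 against 2 months. Leaving out 1 library gave 0 to 1 at 2 months, 1 to 3 at 4 months, 2 to 4 at 6 months, 1 to 3 at 8 months, 3 to 5 over the mean, 0 to 1 for the genotype effect and 0 to 2 for rTg4510 at 4 against 2 months.

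Of 45 fold changes of the 9 genes, moderated variance changed the call or direction of 0, all 32 libraries of 12, quantile normalization of 5 and the block of 6. Changes of sign were those of genes not called. With all 32 libraries Atf4 was at 0.36, Ddit3 at 0.36 and Xbp1 at 0.089 at 4 months, and Xbp1 at 0.040 over the mean of the ages. Under quantile normalization Atf4 was at -0.083, -0.073 and -0.15 at 6 months, 8 months and over the mean, and Xbp1 at -0.0029 at 8 months. Leaving out 1 library, Atf4 ran from -0.16 to 0.087 at 2 months and from -0.14 to 0.13 at 4 months, Ddit4 from -0.22 to 0.62 at 2 months, Ppp1r15a from -0.21 to 0.57 at 4 months, Sesn2 from -0.050 to 0.14 at 2 months and from -0.14 to 0.024 at 8 months, and Xbp1 from -0.065 to 0.18 at 8 months. Calls lost with all 32 libraries were those of Asns at 4 months (0.77, limma FDR 0.125) and 6 months (FDR 0.055), Chac1 at 4 months (1.11, FDR 0.153), Ggct at 2 months (FDR 0.181), and Ddit4 at 8 months (-1.01, FDR 0.186) and over the mean (-0.58, FDR 0.070). Beside the calls gained by leaving out a library, Chac1 was called at 8 months under quantile normalization (1.46, limma FDR 0.037), and Sesn2 at 4 months (-0.74, FDR 0.025) and Ppp1r15a over the mean (0.59, FDR 0.044) were called with all 32 libraries. The cause was not tested.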
